A study of Mus musculus with 4 samples.

Results

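Dsp, Perp, Krtdap, Ly6d and S100a3 are genes of desmosomes, the epidermis and the hair shaft, and their transcripts were followed here in mouse gastrocnemius, a calf muscle. The 5 genes were picked for a rise on the array taken 3 h after cortisol, so their values on that array are a description of the choice and carry no test. Every probe set annotated with 1 of the 5 symbols and no other was read, which gave 8 of the 12422 probe sets on the array and 5 of its 8251 genes. Messenger RNA was read with 4 Affymetrix MG-U74Av2 arrays, 1 for each of 4 groups, and each array carried RNA pooled from 10 mice. The first group was intact mice and the second was mice adrenalectomized 1 week earlier, which lack the main source of corticosterone. In the other groups adrenalectomized mice had received 0.1 mg of cortisol, a glucocorticoid, by intraperitoneal injection 3 h or 24 h before the muscle was taken, and for these the interval since surgery was not given. Strain, sex, age, time of day and a group injected with vehicle were not given in the labels. With 1 pool per group, group, pool and fluidics module (1, 2, 3 and 4) cannot be told apart, and no difference below has a replicate check.

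Desmosomes are button-like junctions that hold neighbouring epithelial cells together. Their cadherins bind plakoglobin and plakophilins, which bind desmoplakin (Dsp), and desmoplakin anchors the keratin filaments of the cell. Heart muscle also has desmoplakin, in its intercalated discs, whereas skeletal muscle fibres are syncytia without desmosomes. Perp is a tetraspan membrane protein that is needed for stable desmosomes in stratified epithelia, and its gene is a target of p53 and p63. Krtdap, keratinocyte differentiation associated protein, is a secreted protein of keratinocytes that have left the basal layer. Ly6d is a membrane-anchored protein of the Ly6 family found on keratinocytes and on cells of the B lineage. S100a3 is a calcium-binding S100 protein best known from the cuticle of the hair shaft, so that the name of the group describes it only loosely. Glucocorticoids act through a receptor that binds DNA as a dimer at paired half-sites, the AP-1 factors Fos and Jun bind a short palindrome near many keratinocyte genes, and p63, the p53 relative of stratified epithelia, binds the p53 family site.

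Promoter windows of 300 bases, from 250 before to 50 after an annotated start, were available from RefSeq on GRCm38.p6 for 3 of the 5 genes. They were searched on both strands because the 5 genes were high on the same array. Dsp and Krtdap had 1 window each and S100a3 had 4. The Dsp window, the Krtdap window and the 1 S100a3 window with a match are printed, all from the plus strand, with the matched letters in capitals.
Dsp, chr13:38151044-38151343: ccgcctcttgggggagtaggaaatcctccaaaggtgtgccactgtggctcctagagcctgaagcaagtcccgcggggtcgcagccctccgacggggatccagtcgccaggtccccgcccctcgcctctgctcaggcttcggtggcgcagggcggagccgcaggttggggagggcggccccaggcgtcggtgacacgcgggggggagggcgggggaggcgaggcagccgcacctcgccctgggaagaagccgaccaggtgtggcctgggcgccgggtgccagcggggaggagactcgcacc
Krtdap, chr7:30787655-30787954: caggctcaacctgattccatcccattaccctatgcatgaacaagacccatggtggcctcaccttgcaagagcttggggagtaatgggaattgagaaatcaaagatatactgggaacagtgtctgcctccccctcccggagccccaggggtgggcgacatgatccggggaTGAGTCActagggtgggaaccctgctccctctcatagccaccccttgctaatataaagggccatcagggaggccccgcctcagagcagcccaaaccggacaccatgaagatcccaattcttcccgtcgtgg
S100a3, chr3:90588313-90588612: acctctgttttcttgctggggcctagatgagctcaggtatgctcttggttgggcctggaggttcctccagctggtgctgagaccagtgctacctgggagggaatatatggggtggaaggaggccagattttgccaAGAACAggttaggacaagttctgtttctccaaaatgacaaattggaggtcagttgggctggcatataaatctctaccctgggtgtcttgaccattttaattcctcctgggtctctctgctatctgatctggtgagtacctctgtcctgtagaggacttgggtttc
The capitals in the Krtdap window are an AP-1 site (TGANTCA), 81 bases before the start. The capitals in the S100a3 window are the glucocorticoid receptor half-site TGTTCT, read on the other strand, 115 bases before the start. The Dsp window held none of the 3 motifs in the forms searched. Its GC content was 73.0% against a median of 52.7% over the 32851 promoters in the table. The half-site TGTTCT was found in 1 of the 6 windows and in 19.0% of all promoters, and the AP-1 site in 1 of the 6 and in 7.81% of all. The p53 family half-site was searched only in the form with CATG at its centre, which was in 0 of the 6 windows and in 1.93% of all promoters. Forms with other central letters, such as CAAG, were not searched. No searched motif overlapped another in these windows, and a match is a run of letters in a window, not a measured site.

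All 5 genes read highest 3 h after cortisol and second highest at 24 h. Signals are MAS 5.0 intensities scaled so that the trimmed mean of each array is 500, and signals under 100 were treated as unmeasured. Dsp read 58.5 in intact muscle, 67.4 after adrenalectomy, 1720 at 3 h and 272 at 24 h. It was thus below the floor without cortisol and above it at both times after the injection. Dsp was at least 17.2-fold higher at 3 h than in adrenalectomized muscle, a log2 ratio of 4.10 with the adrenalectomized signal set to the floor. Perp read 86.0, 70.9, 769.7 and 202 in the same order of arrays, with both uninjected groups again under the floor. At 3 h it was at least 7.70-fold above the adrenalectomized array.

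Of the genes of keratinocyte differentiation, Ly6d was measured on all arrays and Krtdap only after cortisol. Krtdap read 44.0, 39.6, 892 and 266, and at 3 h it was at least 8.92-fold above the adrenalectomized array. Its only probe set carries a suffix for probes that can match other transcripts, so its signal may include them. Ly6d read 171, 161, 490 and 353 and was above the floor on every array. Its 3 h signal was 3.03-fold the adrenalectomized one, the smallest ratio of the 5.

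S100a3 read 190, 131, 912 and 290 and was also above the floor throughout. It was 6.94-fold higher at 3 h than in adrenalectomized muscle. A second S100a3 probe set read 8.71, 8.23, 462 and 94.1, above the floor at 3 h alone and there at least 4.62-fold higher. Both S100a3 sets were therefore highest on the same array. The second set of Dsp read at most 7.98, and that of Ly6d at most 19.0, on the 4 arrays; these 2 sets were under the floor everywhere and gave no ratio. The values of Dsp, Perp, Ly6d and Krtdap thus rest on 1 probe set each. When all sets of a gene were averaged, Dsp read log2 2.05 and Ly6d 0.80 at 3 h against the adrenalectomized array.

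**Figure D1:**
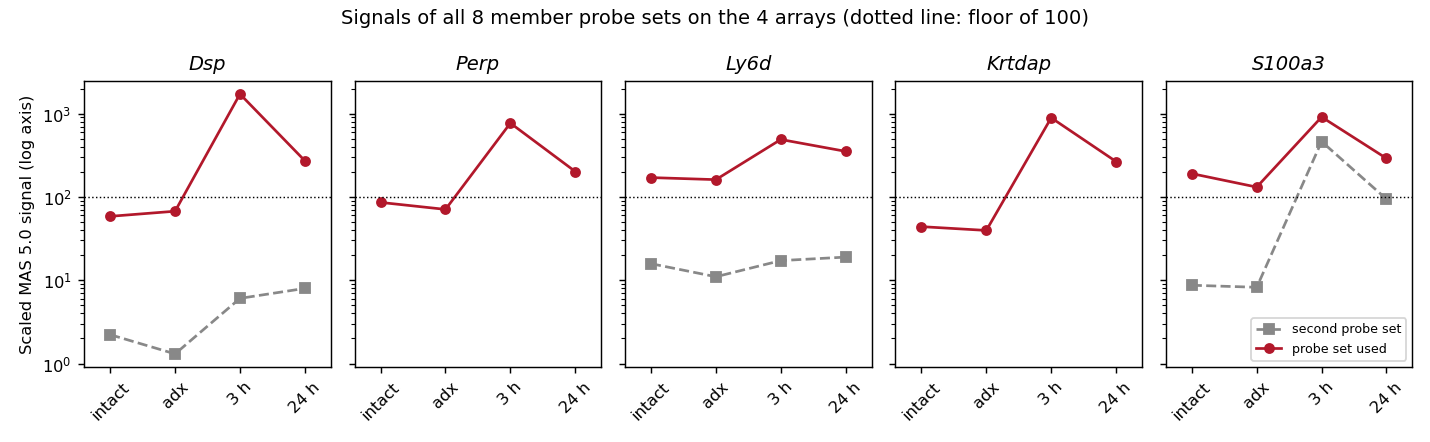
Scaled MAS 5.0 signal (log axis) of each of the 8 probe sets on the intact, adrenalectomized (adx), 3 h and 24 h arrays, 1 array per group and no error bars. Red circles are the probe set used for each gene, grey squares the second set where there is one, and the dotted line is the floor of 100. Every red line peaks at 3 h, and only Ly6d and S100a3 are above the floor before cortisol.

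Against the adrenalectomized array, 5 of the 5 genes were at least 2-fold higher at 3 h, where 1.86% of all genes compared were. Nothing is read from that count, since the genes were chosen for it. The ratios of Dsp, Perp and Krtdap are lower bounds set by the floor, so the 5 are not ranked against other genes. Against the intact array 5 of 5 were again at least 2-fold higher at 3 h, beside 1.83% of all genes, with S100a3 4.79-fold and Ly6d 2.87-fold up. That comparison uses the same 3 h array, and so is no independent view of it. In RNA of whole muscle, fewer cells of a type and less RNA per cell cannot be told apart, and the same holds for more of either.

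Adrenalectomized and intact muscle could be compared for 2 of the 5 genes. Dsp, Perp and Krtdap were below the floor on both the intact and the adrenalectomized array, so that no ratio could be formed. Ly6d differed by -0.08 on the log2 scale between adrenalectomized and intact muscle, within the error SD of 0.24. That error SD was taken from the disagreement between pairs of probe sets for 1 gene, over 928 genes, and holds no variation between mice or pools. S100a3 was 1.45-fold lower in adrenalectomized than in intact muscle (log2 -0.54), beyond that error SD. That ratio rests on 1 probe set, as the second S100a3 set was under the floor on both arrays. With both sets averaged it was -0.27, and a floor of 200, above both signals, left 0. Of the 2 genes 0 were at least 2-fold higher, where 0.344% of all genes were, and a count over 2 genes says nothing about the other 3.

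At 24 h the 5 signals lay between the uninjected and the 3 h levels. Against the adrenalectomized array Dsp was at least 2.72-fold, Krtdap at least 2.66-fold, S100a3 2.21-fold, Ly6d 2.19-fold and Perp at least 2.02-fold higher. All 5 of 5 passed 2-fold, where 1.27% of all genes did, but the adrenalectomized array is shared with the comparison that chose them. With all probe sets of a gene averaged, 2 of the 5 passed, and a floor of 200 left 0, because the 24 h signals themselves lie between 202 and 353.

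The 24 h and intact arrays give the 1 comparison that uses neither the 3 h nor the adrenalectomized array. Dsp (at least 2.72-fold), Krtdap (at least 2.66-fold), Ly6d (2.06-fold) and Perp (at least 2.02-fold) were past 2-fold there, 4 of the 5 genes, against 1.11% of the 6219 genes compared. S100a3 was 1.52-fold higher (log2 0.61, error SD 0.32). Perp and Ly6d sat at the 2-fold line: scaling to the median or quantile normalization left log2 ratios of 0.98 for Perp and 0.97 or 0.96 for Ly6d, and with either only Dsp and Krtdap passed. With all probe sets of a gene averaged 2 passed, Krtdap and Perp, with Dsp at a log2 ratio of 0.72 and Ly6d at 0.52, and with a floor of 200 the count was 0. The all-gene median log2 ratio of this comparison was 0.03.

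**Figure D2:**
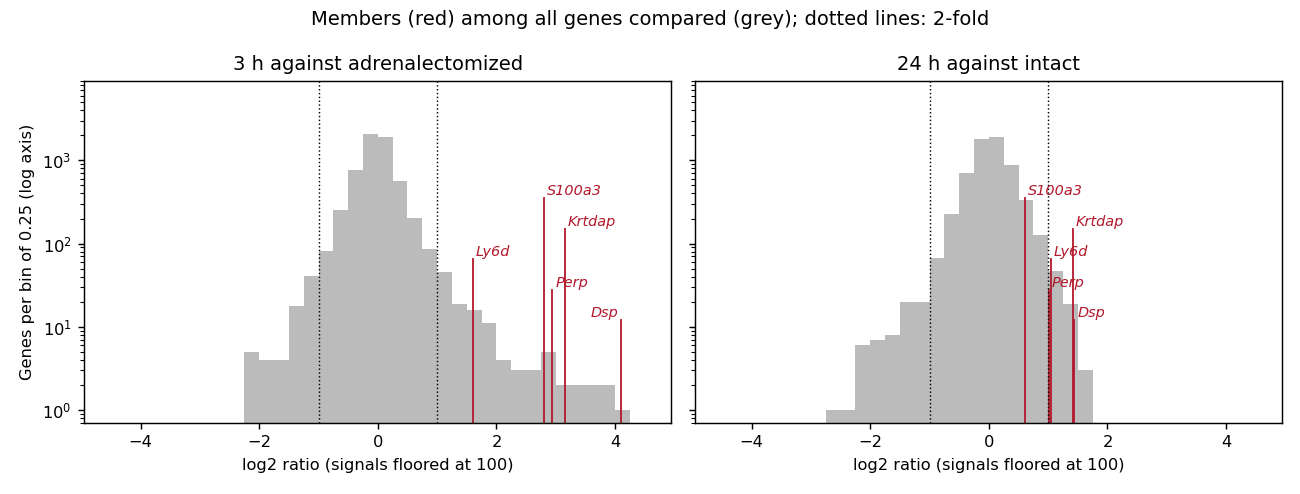
Number of genes per bin of 0.25 (log axis) by log2 ratio, with signals floored at 100, for 3 h against adrenalectomized (left) and 24 h against intact (right). Red lines mark the 5 genes at heights chosen for legibility, and dotted lines mark 2-fold in each direction. In the left panel, which chose them, the 5 lie between 1.60 and 4.10; in the right panel they lie between 0.61 and 1.44, with Ly6d and Perp on the 2-fold line.

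From 3 h to 24 h the genes did not come down alike. Dsp was 6.32-fold lower at 24 h than at 3 h, Perp 3.81-fold, Krtdap 3.35-fold and S100a3 3.14-fold. These 4 of 5 were at least 2-fold lower, where 1.96% of all genes were; 0 of 5 were at least 2-fold higher, where 1.32% were. The rule used the 3 h array, so the count of lower genes restates the choice in part. Ly6d was 1.39-fold lower (log2 -0.47, error SD 0.31), and its ratio stayed between -0.52 and -0.24 under the other settings tried. Of the rise from the adrenalectomized signal to 3 h, 58.3% was left at 24 h for Ly6d and 20.4% for S100a3. For Dsp, Perp and Krtdap the rise was counted from the floor of 100, since their adrenalectomized signals were under it, and the share left was at least 10.6%, 15.2% and 21.0%. Ordered by level, Dsp, Perp and Krtdap ran 3 h, then 24 h, then both uninjected arrays with no order between them. Ly6d ran 3 h, 24 h, then intact and adrenalectomized without a difference beyond the error SD. S100a3 ran 3 h, 24 h, intact, adrenalectomized, the last pair 0.54 apart on the log2 scale beside an error SD of 0.24. The order of that last pair rests on 1 of its 2 probe sets.

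Ly6d is also a gene of the B lineage, and B cell genes moved on the same arrays. At 3 h 0 of 7 B cell genes compared were at least 2-fold above the adrenalectomized array, where 1.86% of all genes were. At 24 h 4 of 8 were, where 1.27% of all genes were. The 4, named after their values were seen, were Cd79a (4.08-fold) and Cd79b (at least 2.62-fold), which form the signalling part of the B cell receptor, the Src-family kinase Blk (at least 2.37-fold) and the B cell lectin Cd22 (at least 2.04-fold, from a probe set with a suffix). Ms4a1, which encodes CD20, differed by -0.11 on the log2 scale at 24 h. The 7 genes compared at 3 h had a median log2 ratio of 0.46 there, against -0.02 over all genes. Cd79b gave 0.97, a lower bound set by the floor, and Cd79a gave 0.93, both just short of 2-fold. Vpreb1, of the pre-B cell receptor and read by a probe set with a suffix, gave at least 0.50. Ms4a1 gave -0.49 and Pax5, the B lineage transcription factor, -0.82. Thus 2 of the 7 rose past 1.5-fold at 3 h and 1 fell past it. The signals of the 9 B cell genes on the array summed to 1407 in intact muscle, 1264 after adrenalectomy, 1442 at 3 h and 2353 at 24 h, and 7, 4, 7 and 8 of them reached the floor. Of the defining markers Cd79a, Cd79b, Ms4a1, Vpreb1 and Igll1, 5, 3, 5 and 5 of 5 did. Against intact muscle, 3 of 8 B cell genes compared were at least 2-fold higher at 24 h, where 1.11% of all genes were. The part of B cells in the Ly6d signal was not tested.

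**Figure D3:**
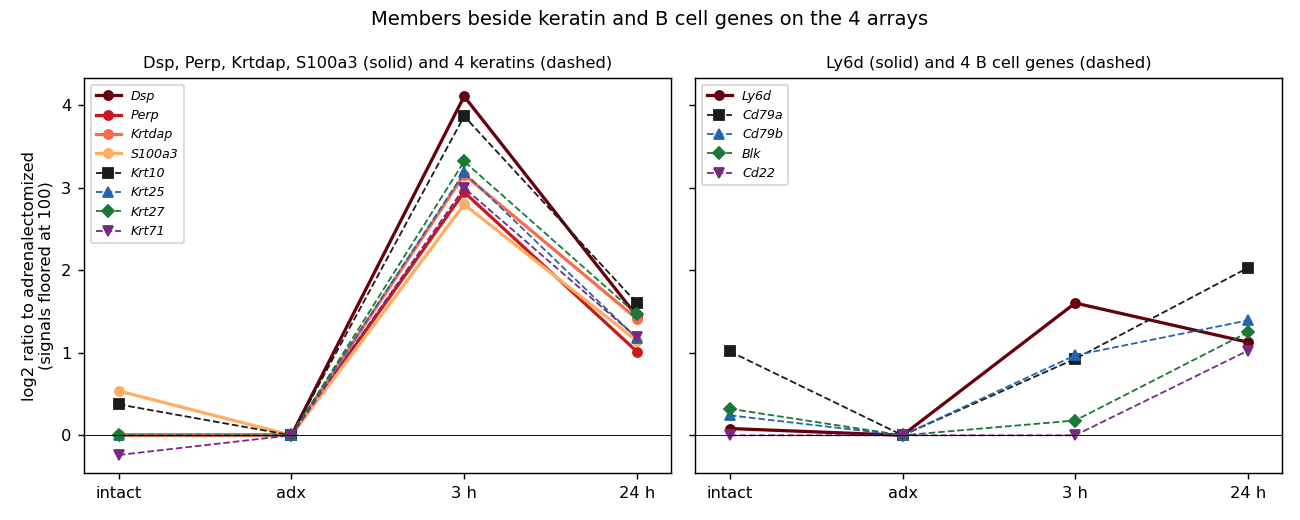
Log2 ratio of each gene to the adrenalectomized array (adx), with signals floored at 100, on the 4 arrays, 1 array per group. Left, Dsp, Perp, Krtdap and S100a3 (solid) beside the keratins Krt10, Krt25, Krt27 and Krt71 (dashed); right, Ly6d (solid) beside Cd79a, Cd79b, Blk and Cd22 (dashed). All 8 lines on the left peak at 3 h. On the right Ly6d peaks at 3 h, while the 4 B cell genes are highest at 24 h. The 4 keratins are at least 2-fold higher at both times and at least 2-fold lower at 24 h than at 3 h. The 4 B cell genes are those at least 2-fold higher at 24 h. The dashed lines thus restate values by which their genes stand out. Other keratins and B cell genes, such as Krt84 and Ms4a1, are not shown.

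Other desmosome genes were less uniform than the pair chosen. Of 11 further desmosome genes on the array, 7 reached the floor on some array. At 3 h 2 of these 7 were at least 2-fold higher than in adrenalectomized muscle, where 1.86% of all genes were, with 0 lower. Pkp1, plakophilin 1 of the outer epidermis, read 135, 158, 616 and 204 (3.89-fold at 3 h), from a probe set with a suffix. Pkp4, a p120-catenin relative also found in other junctions, read 442, 416, 918 and 343 (2.21-fold). Jup, plakoglobin, which also serves adherens junctions, differed by 0.51 on the log2 scale. The median over the 7 was 0.51, against -0.02 over all genes. At 24 h 0 of the 7 were 2-fold higher. Dsc1, Dsc2 and Dsc3, the desmocollin cadherins, and Pkp3 stayed below the floor on every array.

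The outer layers of the epidermis gave a few large differences among many small ones. Of 21 genes compared other than the members, 7 were at least 2-fold higher at 3 h than in adrenalectomized muscle, where 1.86% of all genes were. None was 2-fold lower, and the median log2 ratio of the 21 was 0.37. Krt10, the type I keratin of suprabasal cells, read 227, 175, 2549 and 531 and was 14.6-fold higher at 3 h. Flg, filaggrin, which bundles keratin in cornifying cells, read 146, 38.0, 525 and 126 and was at least 5.25-fold higher. Sprr1a, a cornified envelope protein that nerve injury also induces in neurons, read 130, 119, 595 and 220 (5.00-fold). At 24 h 1 of the 21, Krt10 at 3.03-fold, remained past 2-fold. Signals of the 28 genes of this list on the array summed to 12570, 13462, 18235 and 13481. Much of each sum came from probe sets with a suffix, whose signals may include other transcripts. Among these Sprr1b read 4437, 4802, 4558 and 4273, and Sprr2e 1988, 2020, 1827 and 1970.

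Of the 13 lists, hair follicle genes passed 2-fold at 3 h most often. Of 18 compared, S100a3 left out, 13 were at least 2-fold higher at 3 h, where 1.86% of all genes were, and 0 were lower. The median log2 ratio was at least 1.33, since ratios such as those of Krt34, Tchh and Gata3 are lower bounds set by the floor. At 24 h 4 of 14 were higher, where 1.27% of all genes were. Krtap8-1, a protein that cross-links hair keratins, read 55.9, 4.79, 1147 and 169 (at least 11.5-fold at 3 h). Krt27, a keratin of the inner root sheath read by a probe set with a suffix, gave 19.9, 67.5, 996 and 276 (at least 9.96-fold). Krt25 and Krt71, of the same sheath, were higher by at least 9.09-fold and by 7.98-fold. The summed signals of the 28 hair genes on the array were 3391 and 3339 without cortisol, intact muscle first, and 10913 at 3 h and 4750 at 24 h. Of these 28 genes 18 reached the floor on some array, and Foxn1, Msx2, Dlx3, Crym, Krt83 and Padi4 were among those that did not. Msx1 and Shh were lower at 3 h, with log2 ratios of -0.38 and -0.36, as was Krt84 (-0.57, from a probe set with a suffix). All 6 hair markers, S100a3 among them, reached the floor at 3 h, against 4 at 24 h and 2 in each uninjected group. For the outer epidermis 3, 3, 5 and 5 of 6 markers did, Krtdap among them, and Ivl did on no array. S100a3 and Krtdap were picked for their 3 h rise. The hair markers Krt71, Krt27 and Krtap8-1 are among the 4 largest 3 h ratios of the hair list. These counts are therefore no separate check of the rise. The share of skin or hair RNA in these pools was not tested.

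Genes of the basal layer, where keratinocytes divide, held no ratio past 2-fold at 3 h. Of 6 compared, 0 were at least 2-fold higher, where 1.86% of all genes were, and 3 passed 1.5-fold. The median log2 ratio of the 6 was 0.55, above the 0.37 of the outer epidermis genes. Col17a1, a collagen of hemidesmosomes, gave a log2 ratio of at least 0.91 and Trp63, which encodes p63, of 0.81. Lama3, a chain of the laminin beneath the epidermis, gave at least 0.70 from a probe set with a suffix. Itgb4, the hemidesmosome integrin, gave -0.47. The defining basal keratins Krt5, Krt14 and Krt15 were below the floor on all 4 arrays. Summed signals of the 10 basal genes on the array were 1204, 1080, 1507 and 1177.

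The other genes of the S100 and Ly6 families that could be compared had smaller ratios than the members. Of 8 other S100 genes compared at 3 h, 0 passed 2-fold, with log2 ratios from -0.72 (S100a4) to 0.04 beside 2.80 for S100a3; S100a10, the annexin A2 partner, gave -0.40 and S100a6 -0.26. Of 9 other Ly6 family genes on the array 3 could be compared, Ly6e, Cd59a and Cd59b. Of these 0 passed, where 1.86% of all genes did, with ratios from -0.22 to -0.03 beside 1.60 for Ly6d. Ly6f, Ly6g, Ly6h, Psca, Slurp1 and Plaur were below the floor on every array and gave no ratio. Perp gave 2.94 on the log2 scale at 3 h. Of 13 other genes of the p53 family and its targets, 3 were at least 2-fold higher there, where 1.86% of all genes were. They were Ddit4, an inhibitor of mTORC1 also known as a glucocorticoid target (12.6-fold), Sfn, the 14-3-3 protein of stratified epithelia (2.93-fold), and Sesn1, a stress protein (2.47-fold). Ddit4 read 338, 339, 4250 and 223 and so lay under its own uninjected signals at 24 h, where Perp lay above its own. Among 9 genes of adherens and tight junctions 0 passed 2-fold, the closest being the claudin gene Cldn4 with a log2 ratio of 0.97. Cldn3, another claudin, gave 0.69, the P-cadherin gene Cdh3 0.41 and F11r, a tight junction adhesion molecule, -0.45.

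Genes of other cells gave the scale of the differences outside skin lists. Muscle fibre genes ran from -0.17 to 0.04 on the log2 scale at 3 h (0 of 11 past 2-fold), with Myh4, the heavy chain of the fastest myosin, at -0.08, Tnnc2 at -0.08, Tnni2 at -0.13 and Mylpf at -0.17, and all 5 fixed muscle markers were above the floor on every array. Dermal fibroblast genes had a median of -0.28 (0 of 9 past 2-fold), with signals summing to 37985, 43213, 37221 and 31527. Pdgfra gave -0.58, Dpt -0.48, Col1a1 -0.36 and Mfap5 -0.32. Of the pigment cell genes 1 could be compared at 3 h, Dct with a log2 ratio of 0.26, and Tyrp1 was below the floor throughout. Tyr, Pmel and Mc1r were under the floor on both the adrenalectomized and the 3 h array. Of the sebaceous gland genes Mc5r gave -0.78 and Scd1, which fat and muscle also express, 0.03.

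**Figure D4:**
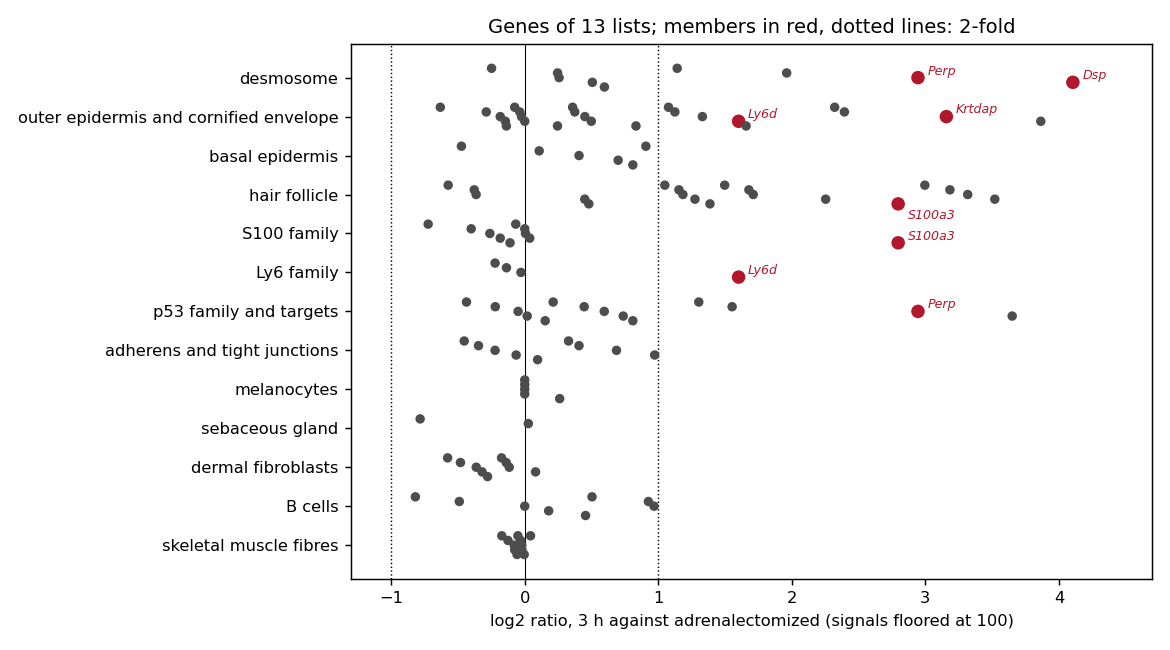
Log2 ratio of 3 h against adrenalectomized, with signals floored at 100, for each gene of 13 lists that reached the floor on at least 1 array. Red points are the 5 genes, which were chosen for this ratio and appear in each list that holds them, grey points are other genes spread vertically for legibility, and dotted lines mark 2-fold. Most hair follicle genes lie right of the upper line, as do 9 outer epidermis and 4 desmosome genes with the members counted, and the muscle fibre genes gather at 0.

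Across all 5928 genes at or above the floor at 3 h, the genes nearest to the members in their 3 ratios to the adrenalectomized array were mostly keratins. The 3 h ratio, by which the members were picked, is the largest of the 3 and weighs most in this likeness, and intact ratios of 0 arise where both arrays are under the floor. Likeness was the root mean square difference of the log2 ratios on the intact, 3 h and 24 h arrays, a description over 3 values that share 1 denominator. For Krtdap the nearest were Krt27 (0.10), Krt25 (0.14) and Krt71 (0.21), and for Perp Krt25 (0.17), Krt71 (0.17) and Krt77 (0.22). For Dsp they were Krt10 (0.27), Krt27 (0.45) and Krtap8-1 (0.52). Nearest to S100a3 were Perp (0.33), Krt25 (0.38) and Fkbp5 (0.39), the FK506-binding protein 5 that is a standard glucocorticoid target. Ly6d had a different company: the glycine receptor subunit Glra1 (0.20), the ubiquitin ligase Traip (0.22) and the hair protein gene Krtap14 (0.27). Among the members Perp and Krtdap were closest to each other (0.26) and Dsp and Ly6d farthest apart (1.46).

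The 5 genes lie on 5 chromosomes (Dsp on 13, Perp on 10, Krtdap on 7, Ly6d on 15, S100a3 on 3), and their measured neighbours had smaller ratios. Of the 30 nearest measured genes, 3 on each side of each member in the GRCm38.p6 gene order, 20 reached the floor on some array. Their log2 ratios at 3 h against the adrenalectomized array ran from -1.05 for Gapdhs, near Krtdap, to 0.45 for Tfap2a, an epidermal transcription factor gene near Dsp that read 86.5, 38.4, 136 and 146. Krtdap lies between Dmkn, dermokine, another gene of differentiating keratinocytes that stayed below the floor on every array, and Cd22. S100a3 lies beside S100a4 in the S100 cluster, where S100a13, S100a14 and S100a6 also had ratios no higher than 0.01 and S100a5 was under the floor on both arrays. The neighbours of Ly6d include Slurp1 and Psca, both below the floor on all arrays, and Ly6e, with a ratio of -0.14.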

How the data were processed

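RNA was extracted with Trizol, and the authors computed probe set intensity signals with MAS 5.0, per the labels; no replicate was made. The deposited instrument settings, of another kind than intensity, were read for fluidics modules and the chip lot only. Columns were matched to groups through the labels. Here, with Python 3.11.15, numpy 2.4.6, pandas 2.3.3 and matplotlib 3.10.9, each array's 2% trimmed mean over 12422 probe sets without controls was scaled to 500, signals were floored at 100 and log2 ratios taken. Of these probe sets 10833 had 1 symbol in the platform annotation, 396 several and 1193 none. A gene was its brightest probe set. A gene was compared where either array reached the floor, and counted at 2-fold; where the dimmer array was under the floor a fold is a lower bound. For the error SD, the log2 ratios of a gene's 2 probe sets were subtracted, and the SD over genes was divided by the square root of 2. Between 62.95% and 64.4% of probe sets reached the floor per array, with median signals of 189 to 199.6; the number of arrays limits the precision. No test was possible. The scaling and counting were tested on simulated data. Genes named were all members, the 4 largest 3 h ratios per list and the 3 nearest patterns per member, plus others named for their place in a list or on a chromosome, chosen after their values were seen. The members and the 13 lists were chosen with earlier results of these data known. Other floors, scalings, summaries and thresholds were tried.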

Additional observations from a re-analysis of the deposited data

How the results depend on the processing

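Of 70 counts of members over 10 other settings 64 stayed within 1.5 times the reported count and 6 moved; none reversed. A floor of 200 gave 0 members 2-fold higher at 24 h against the adrenalectomized array and 0 against the intact array, by construction. Averaging all probe sets gave 2 and 2. Against the intact array at 24 h, scaling to the median gave 2 and quantile normalization 2. Of 264 single ratios 218 kept within the error SD, 46 moved and 0 reversed. The 264 include the ratios of Dsp, Perp and Krtdap between adrenalectomized and intact muscle. Most of these are 0 because both signals were floored, so they could not move. Scaling to 28 ribosomal protein probe sets put the all-gene median log2 ratio of 3 h against the adrenalectomized array at -0.15, from -0.02, and all 5 members still passed 2-fold there. Without probe sets that carry a suffix Krtdap had no value. No paired analysis was possible because each group had 1 array. Vehicle, handling and time of day were not given, the signal over the floor limits Perp at 24 h and every uninjected value of Dsp, Perp and Krtdap, and 1 pool per group leaves the variation between pools unmeasured.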

Other observations

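Among the 6416 genes that reached the floor on some array, 115 were at least 2-fold higher at 3 h than on the adrenalectomized array, and 26 were so at both times after cortisol. Of the 26, 10 were on the desmosome, outer epidermis, basal or hair lists, the 5 members included. The others included genes as high at 24 h as at 3 h, such as Ada, adenosine deaminase (218 on the adrenalectomized array, 606 at 3 h and 672 at 24 h), and Jchain, the joining chain of secreted antibodies (81.4, 206 and 341), named after their values were seen. A further drop of at least 2-fold from 3 h to 24 h left 8 genes: Dsp, Perp, Krtdap and S100a3 with the keratins Krt10, Krt25, Krt27 and Krt71. All 8 were on those lists, which hold 82 genes on the array and 58 that reached the floor. The lists were chosen with earlier results of these data known, and 4 of the 8 are members, picked for their 3 h value. The count thus describes these choices as well and is no separate check.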
